A study of Mus musculus with 48 samples.

Results

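The genes described here are those of the unfolded protein response and of the integrated stress response, taken as a list of 37 gene symbols by their known roles: 15 chaperones and folding factors of the endoplasmic reticulum (ER), 4 components of ER-associated degradation, 8 sensors and transcription factors, 9 targets of the integrated stress response, and the antisense transcript Vldlr-as. Of the 37 symbols, 36 matched a row among the 55450 genes of the deposited count tables, and all 36 were abundant enough to be tested in every comparison. Vldlr-as matched no row and was not analysed here. The members, their role groups and the further gene lists were chosen with earlier results of these data known.

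RNA was sequenced from C57BL/6 mouse cells of 2 genotypes, wild type (WT) and Hmgn1-/- and Hmgn2-/- (DKO, a germline loss of both HMGN proteins, which bind nucleosomes), with 3 replicates of each genotype at each day. White preadipocytes (PRE) came from the inguinal fat of mice aged 8 to 12 weeks and were sampled at days 0, 3, 6 and 9 of differentiation. Mouse embryonic fibroblasts (MEFs) were isolated from embryos and sampled at days 0, 4, 8 and 12. Both genotypes of both cell types received the same differentiation medium (insulin, dexamethasone, IBMX, T3 and rosiglitazone), the preadipocytes for 4 days and the MEFs for 8 days, followed by a maintenance medium with insulin and T3. The preadipocytes are a cell fraction plated from digested fat and the MEFs a primary culture, so neither is a clone or a sorted population. The study's figure legends describe 3 biological replicates, and the labels do not say whether these came from separate mice or cultures. The p-values measure the spread between these samples, and how independent the samples were is not given.

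Total counts per library were 19809356 to 36006679 in the preadipocyte series and 18962481 to 33083194 in the MEF series. Hmgn2 had 0 to 10 counts in the 24 DKO libraries and 744 to 6069 in the 24 WT libraries. Hmgn1 had 1571 to 3493 counts in DKO and 1542 to 6120 in WT libraries, a gene-level count that does not separate deleted from remaining exons and so checks nothing. CPM are each gene's counts scaled to a common library total. In WT preadipocytes the summed CPM of 10 adipocyte markers was between 33.2 and 35.1 at day 0 and between 15100 and 19500 at day 6, and that of 12 macrophage and leukocyte markers was between 138 and 491 at day 0 and between 6070 and 10400 at day 6. Markers of cells other than adipocytes were thus present, and in bulk RNA fewer cells of a type and less RNA per cell cannot be told apart.

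The ER folds secreted and membrane proteins, and unfolded protein in its lumen is sensed by IRE1 (Ern1), ATF6 and PERK (Eif2ak3). IRE1 splices the mRNA of Xbp1, and XBP1 and cleaved ATF6 drive chaperone and degradation genes. PERK, like the kinases that sense amino acid shortage, double-stranded RNA and heme shortage, phosphorylates the initiation factor eIF2, which lowers general translation and favours translation of ATF4. ATF4 and its partners drive amino acid synthesis and transport, tRNA charging and the factors CHOP (Ddit3) and TRIB3, the program named the integrated stress response. Mature adipocytes secrete large amounts of adipokines through the ER, and XBP1 is known to take part in adipogenesis.

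The 2 arms of the response are known to act through different promoter elements. Windows of 300 bases (250 before and 50 after the start of transcription, RefSeq, GRCm38.p6) were held for 33 of the 37 symbols and searched on both strands. The core of the C/EBP-ATF response element bound by ATF4, TGATGNAA, was in 6 of the 33 (18.2%) and in 4.51% of the windows of 27025 genes. The ER stress response element (ERSE), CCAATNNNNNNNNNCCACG, was in 8 (24.2%) and in 0.14% of all windows. Its variant ERSE-II, ATTGG and CCACG with any base between them, was in 2 (6.1%) and in 0.04% of all, and the XBP1-bound core TGACGTGG was in 0 and in 0.71%. ERSE and ERSE-II end in the same letters, CCACG, which the XBP1-bound core also holds, on its opposite strand. The match of a string is a description of these letters and not evidence of binding. Stretches of 5 chaperone promoters are printed. Hsp90b1, Calr, Pdia6 and Creld2 were among the 9 chaperones and folding factors called lower between days 3 and 6 in WT preadipocytes, and Hspa5 is the standard marker gene of the response, for which that change stayed under 1.5-fold. Capitals mark the ERSE on either strand, so that a match on the opposite strand begins with CGTGG, and each sequence runs 5′ to 3′ on the strand of the gene.
Hspa5, chr2:34771995-34772073, plus strand: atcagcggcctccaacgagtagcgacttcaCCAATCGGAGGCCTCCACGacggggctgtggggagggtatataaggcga
Hsp90b1, chr10:86705503-86705686, minus strand: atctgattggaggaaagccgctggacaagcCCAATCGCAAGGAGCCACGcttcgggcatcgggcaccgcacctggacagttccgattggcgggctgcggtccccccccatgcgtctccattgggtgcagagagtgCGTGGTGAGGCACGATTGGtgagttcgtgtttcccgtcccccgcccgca
Calr, chr8:84847045-84847123, minus strand: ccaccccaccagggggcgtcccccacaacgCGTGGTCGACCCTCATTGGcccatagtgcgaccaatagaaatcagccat
Pdia6, chr12:17266461-17266539, plus strand: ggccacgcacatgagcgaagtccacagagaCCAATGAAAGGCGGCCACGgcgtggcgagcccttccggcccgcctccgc
Creld2, chr15:88819490-88819568, plus strand: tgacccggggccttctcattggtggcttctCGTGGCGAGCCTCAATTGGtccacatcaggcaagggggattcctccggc

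The ERSE lay 47 to 65 bases before the start of Hspa5, 80 to 98 before that of Pdia6, 108 to 126 before that of Creld2 and 144 to 162 before that of Calr, and Hsp90b1 held one at 89 to 107 and another at 194 to 212. Canx, Dnajc3 and Syvn1 held the same element and were not called between days 3 and 6 in WT preadipocytes. Of the other chaperones and folding factors called lower there, Pdia3, Pdia4 and Sdf2l1 held no ERSE in their windows. No window was held for Hyou1 and Manf. Of the genes that separated DKO from WT preadipocytes at day 6, Chac1, Nupr1 and Asns held the ATF4-bound core before their start, and Trib3 held it 15 to 22 bases after. Ddit3, Atf5, Ppp1r15a and Phgdh did not hold it in their windows. The starts are those of RefSeq, and those of Chac1, Nupr1 and Asns lie inside the gene spans given below. The core is printed for Chac1, Nupr1 and Asns. It is also printed for Slc7a11, which holds it on both strands and moved most between days, and Herpud1, which holds both this core and ERSE-II. Capitals mark the elements, the core appearing as TTGCATCA where it is on the opposite strand.
Chac1, chr2:119351019-119351086, plus strand: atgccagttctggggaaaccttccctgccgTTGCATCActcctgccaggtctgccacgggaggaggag
Nupr1, chr7:126625543-126625610, minus strand: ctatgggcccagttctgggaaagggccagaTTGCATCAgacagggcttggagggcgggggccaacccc
Asns, chr6:7693210-7693262, minus strand: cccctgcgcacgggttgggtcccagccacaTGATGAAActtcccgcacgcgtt
Slc7a11, chr3:50443623-50443709, minus strand: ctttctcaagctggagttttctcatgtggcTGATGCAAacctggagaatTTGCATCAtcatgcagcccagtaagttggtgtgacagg
Herpud1, chr8:94386287-94386417, plus strand: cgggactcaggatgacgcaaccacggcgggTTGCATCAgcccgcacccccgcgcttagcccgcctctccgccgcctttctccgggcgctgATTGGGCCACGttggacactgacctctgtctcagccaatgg

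In undifferentiated WT cells the most abundant members per kilobase of exon were the ER lectin Calr (calreticulin), the ER HSP90 Hsp90b1, the disulfide isomerase Pdia3, the HSP70 Hspa5 (BiP) and the lectin Canx. Their mean levels in preadipocytes at day 0 were 480.5, 465, 373, 281 and 175 CPM per kilobase, and in MEFs 364, 297, 282, 247 and 143 CPM per kilobase, in the same order. The per-library ranges at day 0 behind these levels were narrow for Calr (1398, 1374 and 1379.8 CPM in WT preadipocytes) and wider for Hspa5 (1298, 1115 and 1153 CPM). The least abundant member in both cell types was the cystine transporter Slc7a11, at 1.04 CPM per kilobase in preadipocytes and 0.97 in MEFs.

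The main question of the design was whether loss of HMGN1 and HMGN2 changed expression during differentiation. A gene was called when its Benjamini-Hochberg adjusted p (edgeR quasi-likelihood test, over all genes tested) was under 0.05 and its change was at least 1.5-fold. A ± beside a log2 fold change gives its standard error (SE). At day 6 of preadipocyte differentiation, 8 of the 36 members were called higher in DKO cells and 0 lower, against 5.03% of the 14694 genes tested called higher and 6.53% lower. Since the list was chosen with earlier results of these data known, these shares describe it and do not test it. The 8 were 3 transcriptional regulators, Ddit3, Nupr1 and Atf5, and 5 targets of the integrated stress response, Trib3, Chac1, Ppp1r15a, Phgdh and Asns. The median log2 fold change of the 36 members was −0.08, beside −0.01 over all genes tested, with most chaperones below 0 and these 8 above. Without the fold threshold 9 members were higher and 7 lower, against 11.6% and 9.96% of all genes. The 3 DKO libraries lay above all 3 WT libraries for 11 members and below them for 13, against 21.5% and 20.6% of all genes. DESeq2 called 8 members higher and 1 lower (Slc7a11), and limma-voom called 7 higher and 0 lower.

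**Figure D1:**
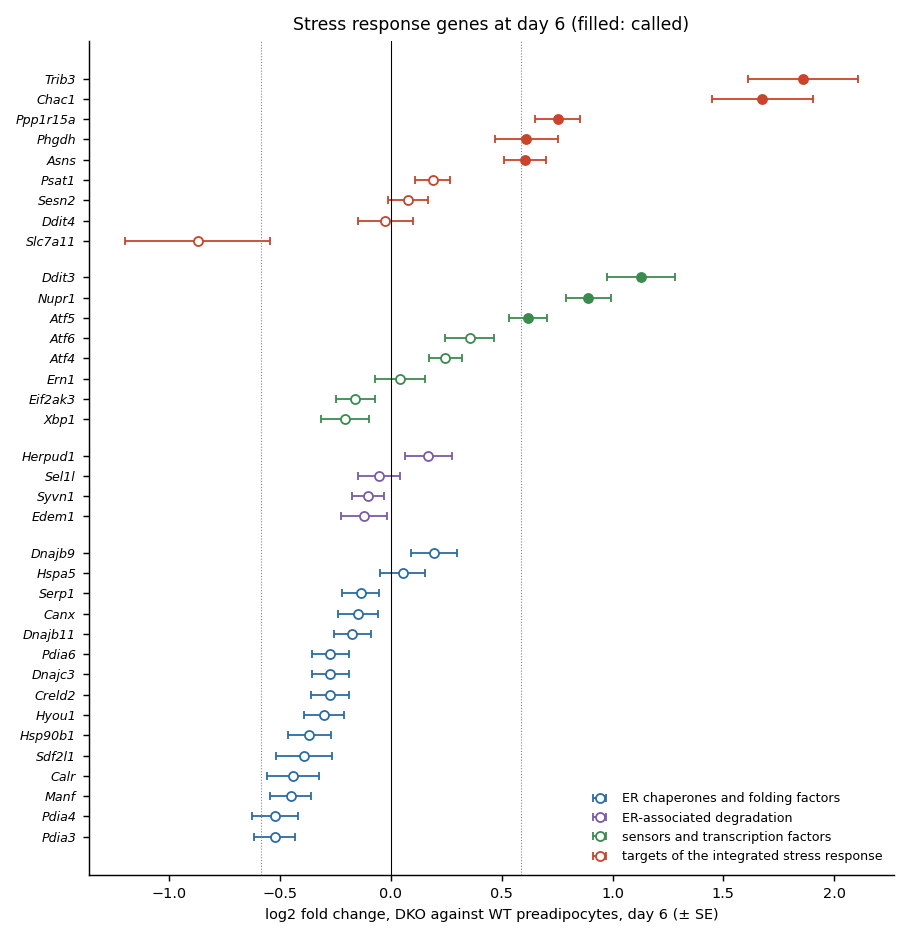
Log2 fold change of the 36 members, DKO against WT preadipocytes at day 6 (horizontal axis, point ± SE, 3 libraries per genotype), grouped and coloured by role, with filled points for called genes and dotted lines at 1.5-fold. Filled points appear among the sensors, transcription factors and integrated stress response targets, from 0.60 (Asns) to 1.86 (Trib3), and 13 of the 15 chaperones lie left of 0.

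Among the sensors and transcription factors, Ddit3 encodes CHOP, a C/EBP-family factor associated with prolonged stress. Its level at day 6 was 30.8, 37.5 and 30.8 CPM in the 3 WT libraries and 72.6, 58.3 and 85.9 CPM in the 3 DKO libraries, a log2 fold change of 1.13 ± 0.15 (SE, adjusted p = 0.0047). The lowest DKO library stood above the highest WT library. Nupr1, a small stress-induced chromatin-associated protein, was at 48.5, 54.4 and 42.9 CPM in WT and 99.0, 89.2 and 83.0 CPM in DKO, and the log2 fold change was 0.89 ± 0.10 (SE, adjusted p = 0.00286). Atf5, a bZIP factor translated by the same mechanism as ATF4, was at 116, 136 and 120.3 CPM in WT and 179, 195 and 199.99 CPM in DKO, a change of 0.62 ± 0.09 (SE, adjusted p = 0.00457). For each of the 3 factors the genotypes did not overlap. Atf4 itself, which is mainly regulated at translation, passed the adjusted p but not the fold threshold, with a log2 fold change of 0.25 ± 0.07 (SE, adjusted p = 0.0471). Of the stress sensors, Ern1 was at 47.2, 44.7 and 50.6 CPM in WT and 50.6, 42.7 and 53.8 CPM in DKO, overlapping groups with a log2 fold change of 0.04 ± 0.11 (SE, adjusted p = 0.82). Atf6 (0.35 ± 0.11), Eif2ak3 (−0.16 ± 0.09) and Xbp1 (−0.21 ± 0.11) did not pass the adjusted p either. The deposited counts do not separate spliced from unspliced Xbp1 and hold no protein or phosphorylation measurement.

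Among the targets, Trib3, a pseudokinase induced by ATF4 and CHOP, had the largest difference. It was at 14.9, 21.1 and 16.9 CPM in WT and 67.0, 44.3 and 80.3 CPM in DKO, 3.63-fold higher with a log2 fold change of 1.86 ± 0.25 (SE, adjusted p = 0.00638). Chac1, which degrades glutathione, was at 3.12, 3.20 and 3.87 CPM in WT and 10.8, 7.94 and 13.8 CPM in DKO, 3.20-fold higher with a log2 fold change of 1.68 ± 0.23 (SE, adjusted p = 0.00442). In both genes the DKO library of replicate 2 was the lowest of the 3 DKO libraries and still above every WT library. Ppp1r15a (GADD34), the phosphatase subunit that reverses eIF2 phosphorylation, was at 37.3, 36.8 and 31.7 CPM in WT and 59.7, 53.6 and 65.3 CPM in DKO, a change of 0.75 ± 0.10 (SE, adjusted p = 0.00454). Asns, which makes asparagine, was at 102, 108 and 99.0 CPM in WT and 143, 153 and 175 CPM in DKO (0.60 ± 0.09, adjusted p = 0.006). Phgdh, the entry enzyme of serine synthesis, was at 17.2, 17.7 and 18.3 CPM in WT and 26.3, 22.5 and 32.6 CPM in DKO (0.61 ± 0.14, adjusted p = 0.0201). The estimated counts of Phgdh were not whole in any library, as happens when reads are divided among similar copies, so its level rests on that division. Without DKO replicate 3 the count of called members fell from 8 to 5, with Atf5, Asns and Phgdh no longer called. Phgdh also lost its call without any 1 WT replicate, and Atf5 without WT replicate 1.

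Not every target of the integrated stress response followed. Slc7a11, the cystine transporter, was at 13.9, 8.52 and 16.8 CPM in WT and 4.68, 9.46 and 7.61 CPM in DKO, a log2 fold change of −0.87 ± 0.33 (SE, adjusted p = 0.102) that did not pass the test. Sesn2, a leucine sensor of the mTORC1 pathway, was at 39.7, 45.0 and 43.0 CPM in WT and 40.9, 50.7 and 43.8 CPM in DKO (0.08 ± 0.09), and Ddit4 (REDD1), an mTORC1 inhibitor, at 215, 285 and 263 CPM in WT and 256, 227 and 270.1 CPM in DKO (−0.03 ± 0.12). The serine synthesis enzyme Psat1 had a log2 fold change of 0.19 ± 0.08 (SE, adjusted p = 0.123). Of 33 other targets of the integrated stress response, such as tRNA synthetases and amino acid transporters, 7 were called higher and 0 lower, and 32 had a log2 fold change above 0, with a median of 0.28. These other targets were likewise chosen with earlier results of these data known. Over all 77 further genes of both pathways, 8 were called higher and 2 lower. The 3 with the smallest p were the mitochondrial folate enzyme Mthfd2 (log2 fold change 0.95 ± 0.09, adjusted p = 0.00164), the ER oxidase Ero1l (1.2996 ± 0.17, adjusted p = 0.00421) and the disulfide isomerase Pdia5 (−0.98 ± 0.13, adjusted p = 0.00422).

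The chaperones were not higher with these genes. At day 6, 0 of the 15 was called, 13 had a log2 fold change below 0, and 7 were lower by adjusted p alone, with a group median of −0.28. Pdia3 was at 457, 415 and 452 CPM in WT and 301, 334 and 290.4 CPM in DKO (−0.53 ± 0.09, adjusted p = 0.00885), with no overlap between genotypes. Calr was at 866, 850.4 and 893 CPM in WT and 577, 759.8 and 600.0 CPM in DKO (−0.44 ± 0.12, adjusted p = 0.032), and Hsp90b1 at 744, 686 and 741 CPM in WT and 529, 597 and 567 CPM in DKO (−0.37 ± 0.10, adjusted p = 0.0297). These 3 were less than 1.5-fold lower, as were Pdia4 (−0.52 ± 0.10), Manf (−0.45 ± 0.09), Hyou1 (−0.30 ± 0.09) and Dnajc3 (−0.27 ± 0.08). Hspa5, the usual marker of the unfolded protein response, had a log2 fold change of 0.05 ± 0.10 (SE, adjusted p = 0.741), and Dnajb9, its co-chaperone and a target of XBP1, was at 168, 183 and 173 CPM in WT and 179, 235 and 188 CPM in DKO (0.19 ± 0.10, adjusted p = 0.211). The 4 members of ER-associated degradation, which returns misfolded protein to the cytosol, were not called either. Herpud1, part of the channel complex, was at 28.5, 34.5 and 32.5 CPM in WT and 37.3, 32.2 and 38.1 CPM in DKO. Its partner Sel1l was at 178, 159 and 175 CPM in WT and 152, 167 and 176 CPM in DKO, the ubiquitin ligase Syvn1 at 43.3, 46.7 and 46.7 CPM in WT and 41.4, 43.5 and 42.9 CPM in DKO, and Edem1, which marks misfolded glycoproteins, at 109, 115 and 120.5 CPM in WT and 104, 95.4 and 118 CPM in DKO, with log2 fold changes from −0.12 to 0.17 in the group.

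Scaling by library size alone shifted the median of all genes at day 6 to −0.11 and gave 5 members higher and 2 lower (Pdia3 and Pdia4), in place of 8 and 0. Markers of the cultured cell types moved with the day 6 result. Summed CPM of the 10 adipocyte markers was 15100 to 19500 in WT and 21800 to 27400 in DKO libraries, with Lipe and Retn called higher and Lep at 0 in the DKO libraries. Summed CPM of the 10 fibroblast and preadipocyte markers was 4820 to 6180 in WT and 1930 to 2630 in DKO, with 5 of 10 called lower, and that of the 12 macrophage and leukocyte markers was 6070 to 10400 and 2210 to 4870, with Lyz2 called lower. Their part in the differences of the stress response genes was not tested. Endothelial markers summed to 5.03 to 10.8 CPM in WT and 5.65 to 7.88 CPM in DKO. Skeletal muscle markers summed to 1.48 to 3.99 and 2.66 to 4.63 CPM, with Myh4, Ckm and Myog at 0, and epithelial markers to 0.038 to 0.117 and 0.0432 to 0.163 CPM, with Epcam and Cldn4 at 0 in both genotypes.

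No member was called between the genotypes at the other 3 days of the preadipocyte series. The share of all genes called in either direction was 0.218% at day 0, 0.337% at day 3 and 1.24% at day 9. Replicates differed here too. Their chi-square per degree of freedom reached 62.1, 78.1 and 71.3 in DKO at days 0, 3 and 9. In WT it reached 25.9, 62.5 and 17, and at day 6 it was at most 32.2 in DKO and 35.6 in WT. The lack of calls at days 0, 3 and 9 is thus no evidence of equal levels. By the edgeR test 1, 2 and 3 members had an unadjusted p under 0.05 at days 0, 3 and 9, and DESeq2 and limma-voom also called 0. Shares of all genes at an unadjusted p under 0.05 are not given here or below, so such counts describe the members alone. At day 3 the 8 genes called at day 6 all had log2 fold changes below 0, from −0.68 (Chac1) to −0.03, none past the adjusted p. At day 9, 7 of the 8 were above 0. Chac1 was then at 6.25, 3.89 and 5.87 CPM in WT and 10.2, 4.66 and 11.5 CPM in DKO, and Trib3 at 23.2, 15.3 and 26.8 CPM in WT and 40.0, 12.5 and 49.8 CPM in DKO. Replicate 2 of DKO was the low library in both genes and overlapped WT. Without it, 3 members (Chac1, Asns and Trib3) were called higher at day 9.

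**Figure D2:**
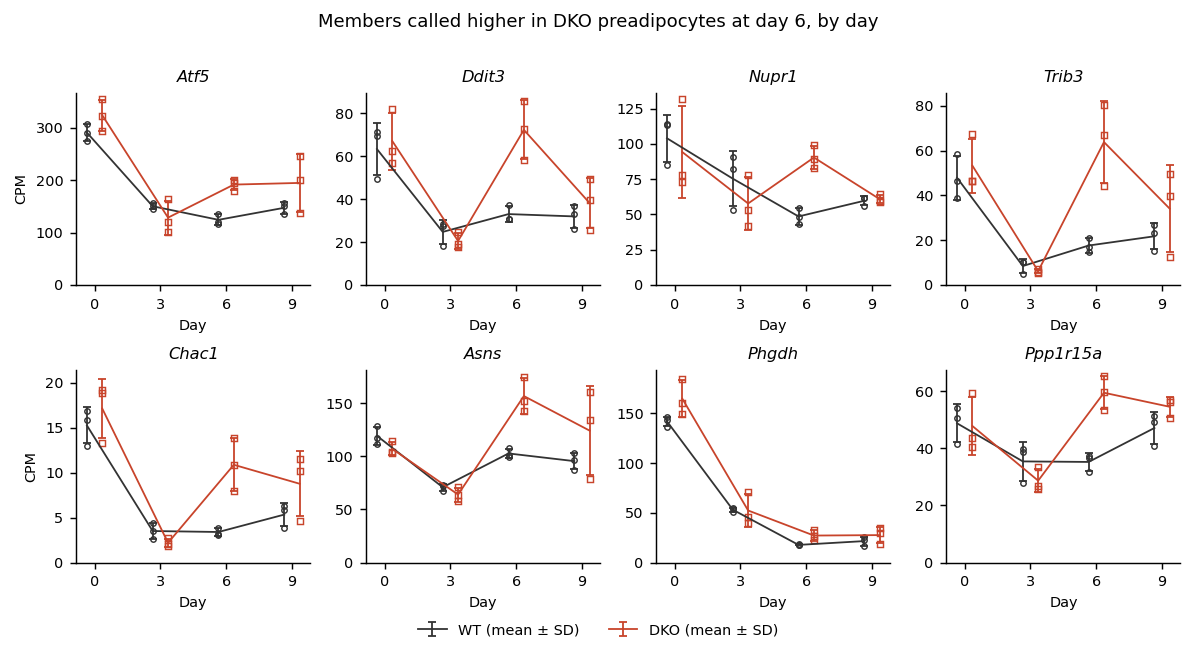
Levels in CPM (vertical axes, from 0) by day in preadipocytes of the 8 members called higher in DKO at day 6, with a point for each library, and lines and bars for the mean ± SD of 3 libraries (WT circles, DKO squares). The DKO libraries stand above the WT libraries at day 6 in all 8 panels and overlap them at day 3 in all 8.

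Whether the genotype difference changed between days was tested as an interaction in the fit over all 24 preadipocyte libraries. Between days 3 and 6, 2 members were called, against 0.51% of all genes. The change to maintenance medium, after 4 days, fell between these days in both genotypes. The interaction of Chac1 was 2.39 ± 0.43 (SE, adjusted p = 0.0159) on the log2 scale and that of Ppp1r15a was 1.10 ± 0.22 (SE, adjusted p = 0.0292). The WT mean of Chac1 stayed at 3.51 ± 0.915 CPM at day 3 and 3.40 ± 0.414 CPM at day 6 (SD, n = 3), while the DKO mean went from 2.19 ± 0.445 to 10.9 ± 2.95 CPM. The interactions of Ddit3 (1.44 ± 0.33, adjusted p = 0.0506), Trib3 (2.34 ± 0.55, adjusted p = 0.0575), Nupr1 (1.32 ± 0.32), Atf5 (0.89 ± 0.23), Asns (0.80 ± 0.23) and Phgdh (0.68 ± 0.30) were positive but missed the adjusted threshold. Of the 77 further pathway genes, Mthfd2 (1.28 ± 0.26, adjusted p = 0.0324) and Nfe2l1 (0.73 ± 0.15, adjusted p = 0.0322) were called. The count depended on single libraries. It was 0 without DKO replicate 2 or 3 of day 3, WT replicate 1 of day 6 or DKO replicate 3 of day 6, 1 without WT replicate 1 or 2 of day 3 or WT replicate 3 of day 6, 3 without DKO replicate 1 of day 3 and 5 without WT replicate 3 of day 3. DESeq2 called 7 and limma-voom 1. No member was called for the steps from day 0 to 3 and from day 6 to 9, against 0.0948% and 0% of all genes. By edgeR 2 and 12 members had an unadjusted p under 0.05 there, and DESeq2 and limma-voom called 0. The share of all genes at that unadjusted p is not given.

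In MEFs no member was called between genotypes at any day. The share of all genes called was 7.98% at day 12 and 0.102% at day 0, with day 4 at 0.0905% and day 8 at 0.0595%. Replicates differed widely before day 12. Their chi-square per degree of freedom reached 168 in DKO at day 0, 85.8 in WT at day 4 and 157 in DKO at day 8. At day 12 it reached 12.6 in DKO. The lack of calls at days 0, 4 and 8 is thus no evidence of equal levels. By edgeR, in the order of the days, 1, 1, 6 and 20 members had an unadjusted p under 0.05 at the 4 days sampled. No share of all genes is given at that unadjusted p. Limma-voom called 0 at each day and DESeq2 called 1 (Trib3, at day 8). At day 0, 3 members were called when replicate 1 of DKO was left out, Ddit4 higher and Psat1 and Trib3 lower. At day 12, 10 members were higher and 6 lower by adjusted p alone, each by less than 1.5-fold, against 17.3% and 15.8% of all genes.

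The 10 higher members at day 12 included 6 of the 8 genes called in preadipocytes. Chac1 was at 6.70, 5.71 and 5.77 CPM in WT and 7.81, 9.65 and 7.204 CPM in DKO (0.45 ± 0.14, adjusted p = 0.0187), and Ddit3 at 35.6, 36.8 and 34.5 CPM in WT and 43.8, 50.7 and 43.7 CPM in DKO (0.38 ± 0.07, adjusted p = 3.11e-04). Ppp1r15a (0.38 ± 0.08), Asns (0.34 ± 0.07), Atf5 (0.31 ± 0.04) and Nupr1 (0.13 ± 0.04) had smaller differences, Trib3 missed the adjusted p (0.44 ± 0.15, adjusted p = 0.061) and Phgdh lay on the other side of 0 (−0.13 ± 0.05, adjusted p = 0.0582). The other 4 were Dnajb9, at 115, 119.9 and 121 CPM in WT and 155, 158 and 163 CPM in DKO (0.43 ± 0.04, adjusted p = 8.19e-07), Atf6 (0.29 ± 0.04), Atf4 (0.14 ± 0.04) and Psat1 (0.14 ± 0.04). The 6 lower members were Pdia3, Pdia4, Canx, Hyou1, Eif2ak3 and Ddit4, with log2 fold changes from −0.23 (Ddit4) upward to −0.11. Of the further pathway genes, Vldlr (0.61 ± 0.09, adjusted p = 0.00123) and Cbs (0.59 ± 0.18, adjusted p = 0.0176) were called higher and 0 lower. Summed adipocyte markers were 11300 to 11500 CPM in WT and 17600 to 19100 CPM in DKO MEFs at day 12, with 8 of 10 called higher, and summed fibroblast and preadipocyte markers 14000 to 14600 and 9460 to 10500 CPM. The part of these markers in the result was not tested. No member was called for an interaction between days in MEFs, against 0.00588% of all genes from day 0 to 4, 0% from day 4 to 8 and 0.00588% from day 8 to 12, with 6, 0 and 1 members at an unadjusted edgeR p under 0.05 and 0 called by DESeq2 and limma-voom.

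The steps between days were also described in the WT cells alone, where neither of the 2 arms was tested as a set. Between days 0 and 3, under differentiation medium, 3 of 36 members rose and 9 fell in WT preadipocytes, against 10.4% and 12.8% of the 16877 genes tested. The median log2 fold change of the members was −0.20, beside 0.00 over all genes. Of the 9 that fell, 8 were factors or targets of the integrated stress response or sensors, and the other was Herpud1. Trib3 fell from 58.4, 46.3 and 39.1 to 10.3, 10.1 and 5.03 CPM (−2.51 ± 0.40, adjusted p = 7.87e-05) and Chac1 from 15.9, 16.8 and 13.0 to 3.56, 4.39 and 2.57 CPM (−2.12 ± 0.30, adjusted p = 1.76e-05). Phgdh fell from 143, 137 and 146 to 53.7, 50.8 and 54.9 CPM (−1.42 ± 0.21, adjusted p = 3.52e-05). Each of these genes was lower at day 3 in all 3 libraries than in any library at day 0. Ddit3 (69.3, 71.0 and 49.6 CPM, then 28.5, 27.4 and 18.3 CPM) changed by −1.36 ± 0.24 (SE, adjusted p = 1.77e-04) and Atf5 (307, 290.2 and 275 CPM, then 156, 149.9 and 145 CPM) by −0.95 ± 0.17 (SE, adjusted p = 1.62e-04). Herpud1 went from 71.0, 63.5 and 62.0 to 33.6, 37.4 and 28.7 CPM (−0.98 ± 0.11, adjusted p = 2.66e-06). Atf6 (−0.75 ± 0.08, adjusted p = 1.67e-06), Asns (−0.75 ± 0.16, adjusted p = 0.00119) and Psat1 (−0.73 ± 0.17, adjusted p = 0.00187) fell by less. The call of Psat1 was lost without replicate 3 of day 0 or replicate 1 of day 3.

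The 3 that rose by day 3 were Ddit4, Ern1 and Dnajb9. Ddit4 went from 84.2, 60.6 and 51.7 to 149, 185 and 132 CPM (1.25 ± 0.19, adjusted p = 4.22e-05). Ern1 rose from 33.0, 40.8 and 31.3 to 68.0, 61.4 and 51.6 CPM (0.79 ± 0.14, adjusted p = 2.48e-04), and Dnajb9 from 44.3, 45.4 and 38.1 to 63.3, 71.2 and 63.6 CPM (0.63 ± 0.11, adjusted p = 1.76e-04). Of the 77 further pathway genes 3 were called higher and 19 lower, and among the 33 further targets of the integrated stress response 3 were called higher and 15 lower. Summed markers of the WT libraries moved over the same days. Those of adipocytes were 33.2 to 35.1 CPM at day 0 and 390 to 1410 CPM at day 3. Those of fibroblasts and preadipocytes were 23300 to 24500 CPM and then 11700 to 14900 CPM, and those of macrophages and leukocytes 138 to 491 CPM and then 66.9 to 240 CPM. Their part in these changes was not tested.

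Between days 3 and 6, 9 of the 15 chaperones and folding factors fell in WT preadipocytes, 2 rose and 4 were not called. The change to maintenance medium, after 4 days, fell within this step, and its part in the changes was not tested. Of the 36 members 4 were called higher and 12 lower, against 21.3% and 24% of all genes. The 15 genes of the chaperone group had a median of −0.74, and 13 were lower by adjusted p alone. Of all genes 24% were called lower with the fold threshold, and their share by adjusted p alone is not given. Pdia3 went from 841, 979.6 and 992 CPM to 457, 415 and 452 CPM (−1.09 ± 0.08, adjusted p = 2.21e-09), Hsp90b1 from 1161, 1449 and 1504 to 744, 686 and 741 CPM (−0.92 ± 0.09, adjusted p = 6.88e-08) and Calr from 1132, 1582 and 1640.4 to 866, 850.4 and 893 CPM (−0.74 ± 0.12, adjusted p = 2.64e-05). In none of the 3 did the libraries of the 2 days overlap. The other 6 were Hyou1 (−1.10 ± 0.11), Pdia4 (−1.04 ± 0.11), Manf (−0.95 ± 0.10), Pdia6 (−0.94 ± 0.11), Creld2 (−0.77 ± 0.11) and Sdf2l1 (−0.59 ± 0.15), with adjusted p values from 8.91e-08 to 0.00161. Pdia4 and Pdia6 are disulfide isomerases, Hyou1 exchanges nucleotide on BiP, and Sdf2l1 works with the BiP co-chaperone Dnajb11. Hspa5 (−0.25 ± 0.09, adjusted p = 0.0214) was below the fold threshold. Dnajb9 moved the other way, from 63.3, 71.2 and 63.6 to 168, 183 and 173 CPM (1.40 ± 0.11, adjusted p = 3.60e-09), and so did Serp1 (0.60 ± 0.09, adjusted p = 5.62e-06), which stabilizes membrane proteins during translocation. Scaling by library size alone gave 2 members higher and 16 lower, with the median of all genes at −0.17 in place of −0.03, and limma-voom gave 2 and 14. Serp1 lost its call under both, and also without replicate 1 of day 3 or replicate 3 of day 6. Sdf2l1 and Nupr1 lost theirs without replicate 1 or 2 of day 3 or replicate 1 or 3 of day 6, and Trib3 without replicate 3 of day 3 or replicate 2 of day 6. Sdf2l1, Nupr1 and Trib3 were also not called without the filter on low counts, nor Trib3 by limma-voom.

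Outside the chaperones, Phgdh fell again, from 53.7, 50.8 and 54.9 to 17.2, 17.7 and 18.3 CPM (−1.59 ± 0.21, adjusted p = 3.45e-06). Sesn2 fell from 87.0, 85.2 and 74.2 to 39.7, 45.0 and 43.0 CPM (−0.95 ± 0.11, adjusted p = 3.96e-07) and Nupr1, whose libraries overlapped, from 90.5, 82.2 and 53.5 to 48.5, 54.4 and 42.9 CPM (−0.64 ± 0.23, adjusted p = 0.0209). Trib3 rose from 10.3, 10.1 and 5.03 to 14.9, 21.1 and 16.9 CPM (1.06 ± 0.39, adjusted p = 0.0241), still under its level at day 0, and Ddit4 rose further (0.71 ± 0.19, adjusted p = 0.0026). Over these days the summed adipocyte markers of WT preadipocytes were between 390 and 1410 CPM at day 3 and between 15100 and 19500 CPM at day 6, and 11 of the 12 macrophage and leukocyte markers were called higher. Summed fibroblast and preadipocyte markers were 11700 to 14900 CPM and then 4820 to 6180 CPM, with 7 of 10 called lower. Their part in these changes between days 3 and 6 was not tested. Of the 77 further pathway genes 11 were called higher and 16 lower, and of the 21 further ER folding and translocation genes 2 were called higher and 9 lower.

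**Figure D3:**
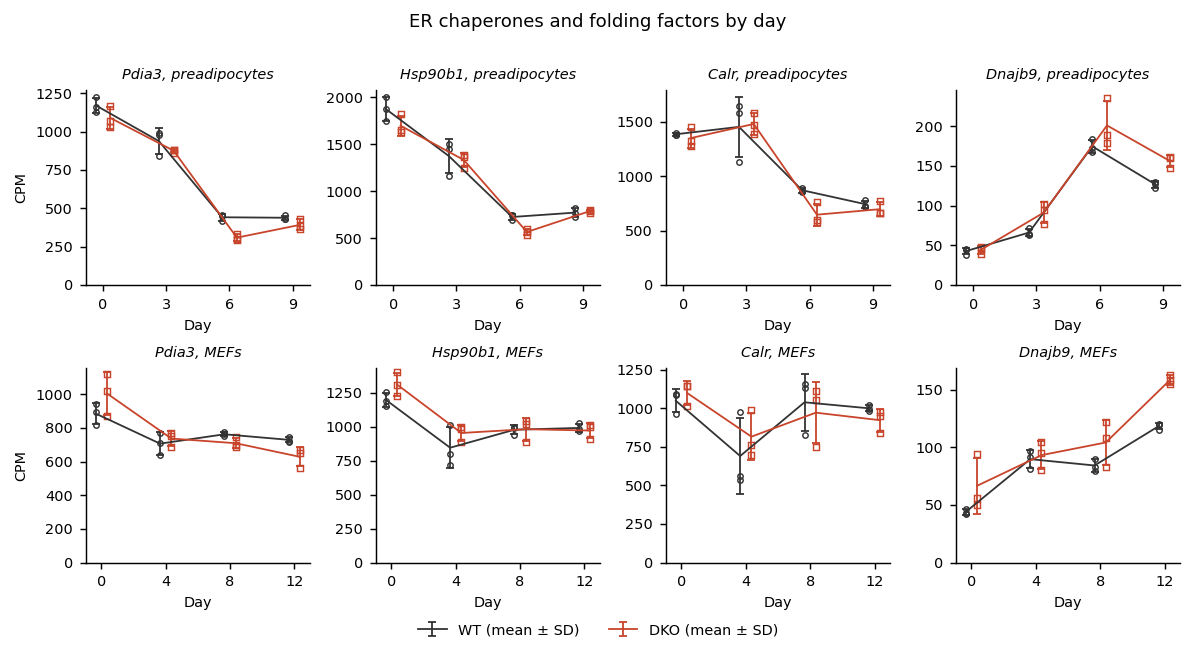
Levels in CPM (vertical axes, from 0) of Pdia3, Hsp90b1, Calr and Dnajb9 by day, preadipocytes above and MEFs below, with a point for each library and the mean ± SD of 3 libraries (WT circles, DKO squares). In preadipocytes of both genotypes Pdia3, Hsp90b1 and Calr step down and Dnajb9 steps up between days 3 and 6, and in MEFs Dnajb9 is lowest at day 0 and Calr in WT dips at day 4.

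Between days 6 and 9, 0 members were called higher and 1 lower in WT preadipocytes, against 8.69% and 4.41% of all genes. The change to maintenance medium, after 4 days, came before this step. Slc7a11 went from 13.9, 8.52 and 16.8 CPM to 3.33, 3.97 and 3.27 CPM (−1.87 ± 0.44, adjusted p = 0.00472), below every earlier library of the WT series. Libraries of the same replicate number deviated together over this step, and with the number as a block 2 members were called: Slc7a11 (−1.85, adjusted p = 0.00547) and, higher at day 9, Chac1 (0.66 ± 0.23, adjusted p = 0.0445). By edgeR 15 members had an unadjusted p under 0.05, and DESeq2 and limma-voom each called 1. How many of all genes passed the same unadjusted p is not given. No chaperone was called. Hsp90b1 was at 816, 725 and 771 CPM and Dnajb9 at 122, 130.1 and 127 CPM.

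In WT MEFs the step from day 0 to day 4 called 6 members higher and 5 lower, against 14% and 17.7% of the 16996 genes tested, with a median of 0.00 over members and 0.04 over all genes. Slc7a11 had the largest change of any member in any comparison, from 13.9, 12.8 and 13.7 CPM to 82.1, 249.5 and 231 CPM (3.79 ± 0.42, adjusted p = 1.33e-06). Replicate 1 at day 4 stood apart from the other 2, yet above every library of day 0. Ddit4 rose from 29.9, 26.8 and 29.8 to 75.3, 88.4 and 105 CPM (1.63 ± 0.22, adjusted p = 1.08e-05), Dnajb9 from 46.8, 42.4 and 42.9 to 96.6, 91.9 and 80.9 CPM (1.02 ± 0.18, adjusted p = 1.23e-04) and Ern1 from 45.9, 55.9 and 52.7 to 76.3, 115 and 108 CPM (0.94 ± 0.17, adjusted p = 1.59e-04). These were the 3 members that rose over the opening step in preadipocytes. Sesn2 (53.9, 62.1 and 61.0 CPM, then 82.9, 106 and 121 CPM) rose by 0.79 ± 0.26 (SE, adjusted p = 0.0165) and Ppp1r15a by 0.69 ± 0.21 (SE, adjusted p = 0.0109).

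The 5 that fell were led by Nupr1, from 97.2, 82.5 and 101 to 42.8, 21.8 and 24.1 CPM (−1.67 ± 0.38, adjusted p = 0.00132). Atf5 fell from 220.0, 254 and 232 to 105, 126 and 132 CPM (−0.97 ± 0.20, adjusted p = 5.42e-04) and Herpud1 from 72.4, 74.1 and 73.5 to 40.6, 43.6 and 43.0 CPM (−0.80 ± 0.11, adjusted p = 1.33e-05). Phgdh (118, 129 and 124 CPM, then 64.4, 85.5 and 93.6 CPM) fell by 0.62 and Calr (1095, 964 and 1088 CPM, then 977, 560.3 and 535 CPM) by 0.61 on the log2 scale, with adjusted p values of 0.00235 and 0.0171. The libraries of Calr overlapped between the days. Its call was lost with library-size scaling, by limma-voom, and without replicate 3 of day 0 or replicate 2 or 3 of day 4, and that of Phgdh with library-size scaling and without replicate 1 of day 4. Sesn2 was no longer called without replicate 1 of day 0 or replicate 3 of day 4, nor Ppp1r15a without replicate 3 of day 4. Library-size scaling gave 6 members higher and 3 lower, with the median of all genes at 0.17. Atf5, Herpud1 and Phgdh also fell over the opening step in WT preadipocytes. Trib3 (−0.22 ± 0.43) and Chac1 (0.40 ± 0.35), which fell in preadipocytes, were not called in MEFs. The cell types were not compared in one fit, since their counts were deposited in separate tables. Summed adipocyte markers of the WT MEFs were 51.1 to 54.6 CPM at day 0 and 371 to 2410 CPM at day 4. Those of fibroblasts and preadipocytes were 23300 to 26600 CPM and then 4220 to 9080 CPM, and those of macrophages and leukocytes 7700 to 9920 CPM and then 4910 to 6240 CPM. Replicate 1 of day 4 also stood apart over all genes: its counts differed from those of the other replicates by a chi-square of 84.3 and 85.8 per degree of freedom, beside 6.74 between those. The part of these markers and of this library in the changes was not tested.

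From day 4 to day 8 in WT MEFs 1 member was called, Slc7a11, lower at 48.3, 63.2 and 47.0 CPM (−1.81 ± 0.39, adjusted p = 0.047), against 0.271% of all genes called higher and 0.135% lower. The call was lost in 8 of 12 alternatives, and the count was 7 without replicate 1 of day 4, 5 without replicate 2 of day 8 and 0 without any other library. From day 8 to day 12, after the change to maintenance medium, 4 members rose and 3 fell, against 12.9% and 6.66% of all genes. Nupr1 rose from 52.3, 40.2 and 50.0 to 127, 127 and 118 CPM (1.44 ± 0.37, adjusted p = 0.00604), above every WT library of days 4 and 8. Atf5 (0.77 ± 0.20, adjusted p = 0.0057), Herpud1 (0.69 ± 0.11, adjusted p = 1.45e-04) and Xbp1 (0.61 ± 0.10, adjusted p = 9.06e-05) rose with it. Slc7a11 went to 14.1, 15.8 and 15.5 CPM (−1.74 ± 0.40, adjusted p = 0.00242), near its level at day 0, and Sesn2 (−0.71 ± 0.26, adjusted p = 0.043) and Ddit4 (−0.59 ± 0.22, adjusted p = 0.0442) fell. Scaling by library size alone gave 2 members higher (Nupr1 and Atf5) and 5 lower, with the median of all genes at −0.06 in place of 0.06, and limma-voom gave 3 and 5. Herpud1 lost its call with library-size scaling, and Xbp1 under DESeq2, library-size scaling, limma-voom, no filter, a fit of these days alone, and without replicate 1 of day 12. Sesn2 was not called without replicate 2 or 3 of day 8 or any replicate of day 12, nor Ddit4 without replicate 1 or 2 of day 8 or any replicate of day 12. Without any 1 replicate of day 12, and without replicate 2 of day 8, 1 member was called lower, Slc7a11. Summed adipocyte markers of the WT libraries were 768 to 4520 CPM at day 8 and 11300 to 11500 CPM at day 12, and their part in these changes was not tested.

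**Figure D4:**
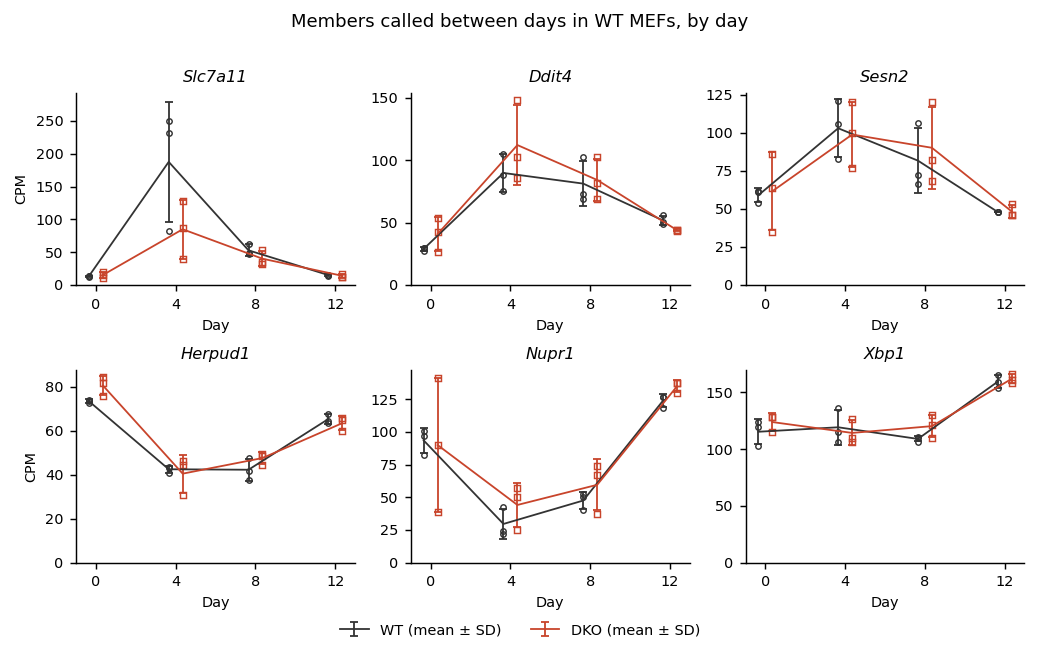
Levels in CPM (vertical axes, from 0) of 6 members called between days in WT MEFs, by day, with a point for each library and the mean ± SD of 3 libraries (WT circles, DKO squares). Slc7a11 peaks at day 4 in WT, where its 3 libraries range from 82.1 to 249.5 CPM, and Nupr1 and Herpud1 dip at days 4 and 8 and return by day 12.

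Over the 20 comparisons, 27 of the 36 members were called at least once and 9 never, beside 63.3% of the 13059 genes tested in all 20. The 9 were the chaperones Hspa5, Canx, Dnajb11 and Dnajc3, the degradation genes Syvn1, Sel1l and Edem1, the PERK gene Eif2ak3 and Atf4. Among them, Sel1l was at 238, 249.9 and 251 CPM at day 0 and 174, 166 and 185 CPM at day 9 in WT preadipocytes. Syvn1 was at 51.3, 60.5 and 47.998 CPM at day 0 and 40.4, 35.0 and 40.1 CPM at day 9, and Edem1 at 145, 135 and 127 CPM and 119, 147 and 138 CPM.

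**Figure D5:**
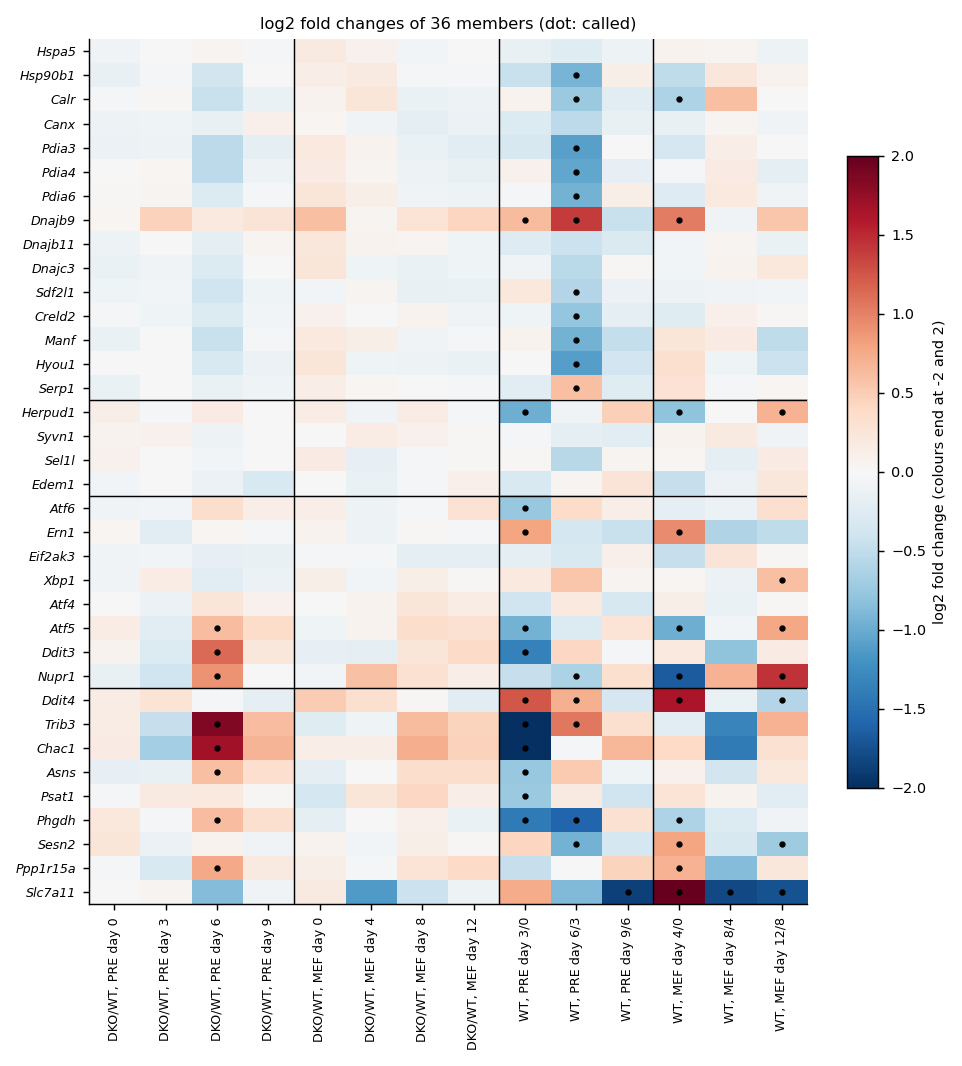
Log2 fold changes (colour, ends at −2 and 2) of the 36 members in rows, grouped by role, for the 8 genotype comparisons and the 6 steps between days in WT cells, with a dot where a member was called. Dots of the genotype comparisons appear in the column of preadipocytes at day 6 alone, where 8 members carry one.

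Ddit3 (chr10:127290774-127296288, mm10) shares 68 exonic bases with its neighbour Mars on the opposite strand, and Atf5 (chr7:44812256-44816658) shares 82 with its neighbours Il4i1 and Nup62. Ppp1r15a (chr7:45522916-45526268) shares 12 with Tulp2 on the opposite strand. The study's methods name a stranded library kit, and whether the counting used the strand is not given in the sources used here. Trib3 (chr2:152337422-152344032), Chac1 (chr2:119351229-119354381), Asns (chr6:7675169-7693254), Phgdh (chr3:98313170-98339990) and Nupr1 (chr7:126623249-126630861) share none. Estimated counts that were not whole, a sign of reads divided among copies, occurred in 100% of libraries for Phgdh, 97.9% for Dnajb9, 91.7% for Calr and 50% for Hsp90b1, and in 0% for Chac1 and Asns.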

How the data were processed

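Members, role groups and gene lists were chosen with earlier results of these data known. The labels give polyadenylated RNA and standard Illumina protocols, while the study's methods name a stranded kit for total RNA, so how the RNA was selected is not settled here. The authors deposited expected counts per gene from RSEM, not normalized, as 2 tables, one for preadipocytes and one for MEFs. The submitters' processing notes name bcl2fastq 2.17, cutadapt 1.18, STAR 2.7.0f, RSEM 1.3.0 and the mm10 build. RSEM divides reads that fit several genes, and 5.49 to 7.9% of values per library were not whole. Groups were taken from the sample titles and genotypes. Of 2 identifiers named Ddit3, the one with 52718 summed counts was used and the one with 7 was not.

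Expected counts were rounded, genes filtered with filterByExpr, libraries scaled by TMM and tested with the robust quasi-likelihood test of edgeR 4.0.16 in R 4.3.3, with p-values adjusted over all genes tested (Benjamini-Hochberg). A gene was called at an adjusted p under 0.05 and a change of at least 1.5-fold. Each genotype comparison was fitted on its 6 libraries. Steps between days in WT cells and interactions of genotype and day were fitted on the 24 libraries of a cell type. CPM values use TMM-scaled library sizes, and CPM per kilobase divides by the summed exon length of a gene. Every called member was named with its statistics, up to 15 per comparison by smallest p, and library values were given for up to 4 members per role with the most calls, and of the further pathway genes only counts and up to 3 called per comparison. Chac1, Trib3, Ppp1r15a, Asns and Hspa5 were added to those with library values after their results were seen.

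Replicates of every group differed by more than counting noise (chi-square per degree of freedom 2.16 to 168), so all were counted. The correlation of deviations of same-numbered libraries was over 0.1 in all 6 pairs for days 6 and 9 of the preadipocyte series (0.172 to 0.539). Pairing was judged from the data, since the labels name no shared culture. The main fit of that step used no pairing, which entered only as the replicate block among the alternatives. In no other step were all 6 over 0.1. Between days 0 and 3 of preadipocytes the 3 DKO pairs were at 0.465 to 0.6 and the 3 WT pairs at −0.14 to 0.525. Alternatives were DESeq2 1.42.0, limma-voom 3.58.1 with quantile normalization, library-size scaling, no filter, no fold threshold, a replicate block, other sets of libraries in the fit, and leaving out each library. The tests were checked on simulated counts with known changes.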

Additional observations from a re-analysis of the deposited data

Results flagged for a closer look

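In preadipocytes the difference between DKO and WT changed from day 3 to day 6 for Chac1, with an interaction of 2.39 on the log2 scale (edgeR adjusted p = 0.0159), and for Ppp1r15a, with 1.10 (adjusted p = 0.0292). Chac1 was lower in DKO at day 3 by its estimate and higher at day 6.

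For 5 further members all 3 DKO libraries lay on one side of the 3 WT libraries in one comparison and on the other side in another, that is 13.9% of the 36 members beside 16.1% of the 13059 genes tested in all 8 comparisons, and these differences between comparisons were not tested. Atf6 had a log2 fold change of 0.35 in preadipocytes at day 6 and −0.11 in MEFs at day 4. Canx had 0.10 in preadipocytes at day 9 and −0.19 in MEFs at day 8. Dnajb11 had 0.22 in MEFs at day 0 and −0.17 in preadipocytes at day 6. Edem1 had 0.099 in MEFs at day 12 and −0.31 in preadipocytes at day 9. Phgdh had 0.61 in preadipocytes at day 6 and −0.13 in MEFs at day 12. Apart from Phgdh at day 6 in preadipocytes, none of these values was called. With 3 libraries per group, no single library was tested as an outlier.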

How the results depend on the processing

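Called members, refitted under each alternative, kept their direction and their call in 615 refits, lost the call in 81 and changed direction in 0. Without the fold threshold the count of members past the adjusted p was 16 for DKO against WT at preadipocyte day 6, 16 at MEF day 12, and 20, 26 and 11 for the WT preadipocyte steps to days 3, 6 and 9, and 17 and 12 for the WT MEF steps to days 4 and 12. For these WT steps the share of all genes past the adjusted p alone is not given, so the counts describe the members only. For the interaction between preadipocyte days 3 and 6 the count was 7 by DESeq2, 1 by limma-voom, 5 with a replicate block and 1 with only the libraries of these days, in place of 2. For WT MEFs from day 4 to 8 it was 5 by DESeq2, 4 with library-size scaling and 0 by limma-voom, without the filter, with the block and with only these days, in place of 1. For WT MEFs from day 8 to 12 it was 4 without the filter, in place of 7, and DESeq2 called 1 member in DKO MEFs at day 8. With the replicate block, the WT preadipocyte step to day 9 called 2 members in place of 1. Same-numbered libraries of the other groups did not deviate together throughout (correlations from −0.0715 to 0.222 between preadipocyte days 3 and 6 and from −0.717 to 0.611 between MEF days 4 and 8, 6 pairs each), and the block moved no other count by over 1.5 times. The cause of these shifts was not tested.

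Leaving out each library in turn, the count for DKO against WT ranged from 5 to 9 at preadipocyte day 6, from 0 to 3 at day 9 and from 0 to 3 at MEF day 0, and was 0 at preadipocyte days 0 and 3 and at MEF days 4, 8 and 12. It ranged from 11 to 12, from 13 to 16 and from 1 to 1 for the WT preadipocyte steps to days 3, 6 and 9, and from 8 to 11, from 0 to 7 and from 4 to 7 for the WT MEF steps to days 4, 8 and 12. For the interactions it ranged from 0 to 5 between preadipocyte days 3 and 6 and from 0 to 1 between MEF days 0 and 4, and was 0 for the other 4. Ddit3, Chac1, Nupr1, Trib3 and Ppp1r15a were called higher at preadipocyte day 6 under all 12 alternatives, Atf5 and Asns under 9 and Phgdh under 7. By the rule for a call, a change under 1.5-fold was not called whatever its adjusted p. Chac1, at 1.81 to 19.2 CPM in preadipocytes, has the fewest counts of the genes called at day 6.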

Other observations

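Genes of the same pathways outside the list of 37 moved during differentiation of WT cells as follows (log2 fold change ± SE, edgeR adjusted p, the 3 with the smallest p of each step). In preadipocytes between days 0 and 3 these were the cytosolic tRNA synthetases Nars (−0.89 ± 0.07, adjusted p = 5.75e-08), Sars (−0.78 ± 0.07, adjusted p = 1.98e-07) and Aars (−0.92 ± 0.09, adjusted p = 2.48e-07). Between days 3 and 6 they were the glutamine transporter Slc1a5 (2.82 ± 0.17, adjusted p = 1.15e-10), the ER-associated degradation gene Derl1 (1.25 ± 0.08, adjusted p = 2.12e-10) and the alanine transaminase Gpt2 (1.97 ± 0.13, adjusted p = 2.95e-10). Slc1a5 fell again between days 6 and 9 (−0.81 ± 0.16, adjusted p = 0.0012), as did Cth, which makes cysteine (−0.86 ± 0.21, adjusted p = 0.00571), while the secreted glycoprotein Stc2 rose (1.34 ± 0.22, adjusted p = 2.68e-04).

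In WT MEFs between days 0 and 4 the ER membrane transcription factor Creb3l1 (−1.83 ± 0.16, adjusted p = 8.42e-08) and Pdia5 (−0.95 ± 0.09, adjusted p = 1.91e-07) fell and Cbs, which condenses serine with homocysteine, rose (3.88 ± 0.47, adjusted p = 2.47e-06). Between days 8 and 12 Nfe2l1, a factor of proteasome genes (0.59 ± 0.10, adjusted p = 2.01e-04), Crebrf (0.88 ± 0.17, adjusted p = 4.81e-04) and Stc2 (1.57 ± 0.30, adjusted p = 5.72e-04) rose.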
